A study of Mus musculus with 30 samples.

Results

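Female mice homozygous for the R191H mutation of Eif2b5 were compared with wild-type (WT) littermates while both ate a placebo diet. R191H is a knock-in of a mutation that causes vanishing white matter disease, a leukodystrophy, and Eif2b5 encodes the catalytic subunit of eIF2B. The line is on the C57BL/6J background, and loxP and FRT sites left by the targeting remain in its locus. Each group held 3 cerebella, each of a separate mouse aged 2 months that had received vehicle, meal chow without compound, for 1 month. These 6 libraries were taken from the 30 of the series, and all 10512 genes of the diet table were considered, of which 10079 had enough unique reads to be tested. The tissue was cerebellum, of which the study took RNA from pieces, and the library was total RNA after removal of ribosomal RNA. Fewer cells of a type, less RNA per cell and a difference in the part sampled therefore cannot be told apart.

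eIF2B is the guanine nucleotide exchange factor that reloads eIF2 with GTP so that ribosomes can start on an mRNA. When stress kinases phosphorylate eIF2, or when eIF2B itself is impaired, general initiation falls while the mRNA of the transcription factor ATF4 is translated better. ATF4 and its partners then switch on genes for amino acid uptake and synthesis, tRNA charging and feedback control. This programme is the integrated stress response (ISR). In the cerebellum, glial cells of interest in vanishing white matter are the oligodendrocytes, which make myelin, and the astrocytes, among which Bergmann glia span the molecular layer beside the Purkinje cells.

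The libraries held between 12873718 and 17044673 unique reads. R191H replicate 1 stood apart. The ribosomal RNA gene Rn18s-rs5 took 8.25% of its reads, against 0.183% to 0.415% in the other 5 libraries. Its share of the deposited TPM, an expression level corrected for transcript length, was 57.5%, against 3.32% to 6.04%. For that reason levels below are unique reads normalised to library size (CPM, scaled by the trimmed mean of M-values), and TPM was used only as an alternative. Xist, which marks female cells, lay between 2392 and 2746 CPM in the 6 libraries, and no Y-linked gene of the list was in the table.

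Of the 10079 genes tested, 78 (0.774%) differed between genotypes at an adjusted p under 0.05 (edgeR quasi-likelihood test with Benjamini-Hochberg adjustment). In R191H cerebellum 48 genes (0.476% of those tested) were higher and 30 (0.298%) were lower. The genes that were higher carried the larger folds, since 11 of them and 3 of the lower genes differed by more than 1 on the log2 scale. The median log2 fold-change of the higher genes was 0.58 and that of the lower genes was -0.52, while the median of all genes tested was 0.00. In each of the 78 the 3 R191H libraries did not overlap the 3 WT libraries, which was so for 12.9% of all genes tested. Over all lists of ISR genes, 94 genes were tested, 14 were higher and 0 were lower. Lists of astrocyte and oligodendrocyte genes together had 39 genes tested, 1 higher and 6 lower. The lists were chosen with earlier results of these data known, so counts of their called members are not independent evidence.

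**Figure D1:**
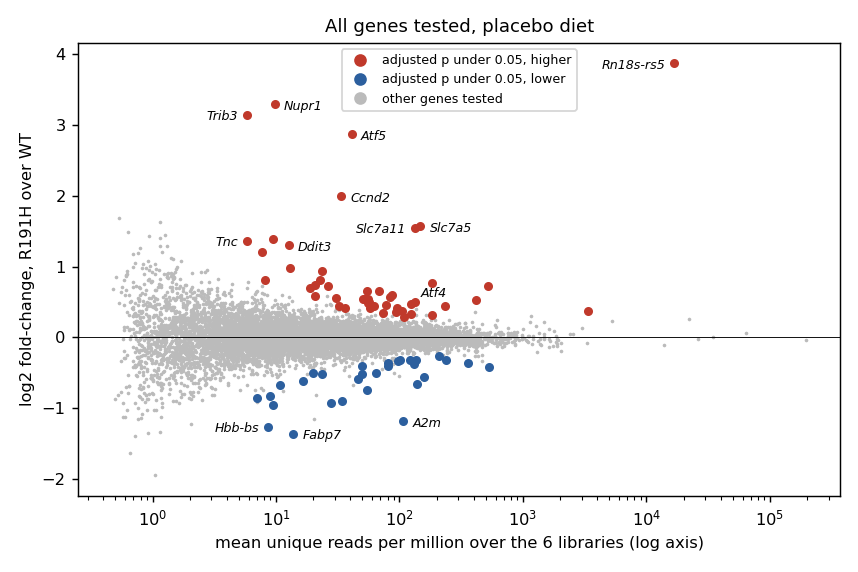
Log2 fold-change of R191H over WT on placebo (vertical axis) against the mean CPM over the 6 libraries (horizontal log axis) for the 10079 genes tested, with the 48 higher genes in red and the 30 lower genes in blue. Nupr1, Trib3 and Atf5 lay highest among called genes of low to moderate level. Rn18s-rs5 lay furthest right of the called genes, while some genes that were not called, such as Rn7sk, lay further right.

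The mutated gene itself was measured first. Eif2b5 (ENSMUSG00000003235, chr16:20498817-20509323, plus strand, GRCm38) read 62.3, 66.4 and 67.5 CPM in R191H replicates 1 to 3 and 60.2, 64.1 and 69.9 CPM in WT replicates 1 to 3. The groups overlapped, and the log2 fold-change was 0.01, with a 95% interval of -0.15 to 0.18. A point mutation is not seen by gene counts, so this level does not check the genotype labels. The other subunits, Eif2b1 (log2 fold-change -0.18), Eif2b2 (0.45), Eif2b3 (-0.29) and Eif2b4 (-0.05), had adjusted p of 0.79 or more in the same fit, and Eif2b2 and Eif2b4 read between 0.826 and 1.99 CPM. Of 14 genes tested for eIF2, eIF2B and the eIF2 kinases, 0 passed. Eif2ak3, which encodes the kinase PERK, had the smallest p of that list, with a log2 fold-change of 0.61 and overlapping groups (adjusted p = 0.506).

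The ISR transcription factors and their feedback regulators held the 3 largest folds of protein-coding genes. Of 27 genes on that list 16 were in the table, 15 were tested, 6 were higher and 0 were lower (background 0.476% higher). Their median log2 fold-change was 0.22, and their summed level was 859 to 893 CPM in R191H libraries and 667 to 714 CPM in WT libraries.

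Atf5, a bZIP factor whose own translation is raised by the ISR, gave the smallest p of all genes. It read 71.3, 71.3 and 74.2 CPM in R191H replicates 1 to 3 against 11.8, 8.32 and 9.72 CPM in WT. The 3 R191H libraries were within a few CPM of each other and far above WT, a log2 fold-change of 2.87 ± 0.11 (SE, n = 3 per group; edgeR adjusted p = 2.91e-14). Nupr1, a small stress-induced chromatin protein, was at 16.6, 16.0 and 20.4 CPM in R191H and at 2.27, 1.43 and 1.73 CPM in WT. This was the largest rise of a protein-coding gene, with a log2 fold-change of 3.30 ± 0.20 (edgeR adjusted p = 1.07e-10). Trib3, a pseudokinase that restrains ATF4 and CHOP, was nearly unread in WT, at 1.38, 1.15 and 1.02 CPM, and was at 8.94, 9.13 and 13.4 CPM in R191H. Its log2 fold-change was 3.15 ± 0.25 (edgeR adjusted p = 2.06e-08).

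Ddit3, which encodes the pro-apoptotic factor CHOP, read 19.0, 17.5 and 18.0 CPM in R191H and 6.47, 8.83 and 6.65 CPM in WT. No R191H library came near WT, and the log2 fold-change was 1.30 ± 0.15 (edgeR adjusted p = 7.31e-06). Cebpg, a bZIP partner of ATF4, rose by less, from 68.5, 65.9 and 69.3 CPM in WT to 96.9, 102.8 and 102.7 CPM in R191H. Its groups were tight, so that a log2 fold-change of 0.57 ± 0.07 gave an edgeR adjusted p of 2.44e-05. Atf4 itself was at 138.7, 133.6 and 145.1 CPM in R191H and at 108.8, 103.8 and 118.3 CPM in WT. The Atf4 mRNA difference was small beside those of Atf5 and Trib3 (log2 fold-change 0.34 ± 0.07, edgeR adjusted p = 0.0127). The Atf4 call was lost without R191H replicate 3 (adjusted p = 0.149), without WT replicate 1 (0.0593), without WT replicate 2 (0.167) and when library totals set the scale (0.077).

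Other members of the list were not called. Ppp1r15a, which encodes the stress-induced regulatory subunit of the eIF2 phosphatase (GADD34), was read at 1.07 to 1.90 CPM in R191H and 0.704 to 1.61 CPM in WT, with a 95% interval of -0.73 to 0.99 on the log2 scale. At that depth a change of less than that size was not detectable. Nfe2l1 and Ifrd1 had groups that did not overlap, with log2 fold-changes of 0.38 and 0.22 and adjusted p of 0.571 and 0.596 in the edgeR fit. Atf3, Chac1, Gadd45a, Gdf15 and Fgf21 were among the 11 members not listed in the table.

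The amino acid transporter genes that rose were 3 that work together. Slc7a5 (LAT1, the large neutral amino acid exchanger) was at 234, 198 and 231 CPM in R191H and 72.3, 76.4 and 74.6 CPM in WT, a log2 fold-change of 1.57 ± 0.07 (edgeR adjusted p = 1.1e-12). Slc7a11 (xCT, the cystine/glutamate antiporter) was at 195, 217 and 186 CPM in R191H and 64.2, 63.7 and 76.0 CPM in WT, a log2 fold-change of 1.55 ± 0.08 (edgeR adjusted p = 4.68e-12). Both transporters pair with the heavy chain encoded by Slc3a2. Slc3a2 read 11.8, 12.8 and 16.2 CPM in R191H and 4.41, 6.08 and 4.99 CPM in WT, a log2 fold-change of 1.39 ± 0.18 (edgeR adjusted p = 4.3e-05). In all 3 genes the lowest R191H library lay well above the highest WT library. Over the list of amino acid transporters, these were the only calls of 17 tested, and the median log2 fold-change was 0.02. Slc38a2 (SNAT2) was next, at 319.8 to 334.6 CPM in R191H and 260.0 to 300.6 CPM in WT, without passing the test (adjusted p = 0.231).

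Promoter sequence is shown for 3 of the genes that rose, because ATF4 and its C/EBP partners are known to bind a composite C/EBP-ATF response element. Its core was searched as TGATGNAA on both strands in RefSeq promoter windows of 300 bases (GRCm38.p6, 250 before to 50 after each start), where N is any base. Windows were found for 32 of the 48 higher genes and 22 of the 30 lower genes, and there was none for Slc7a5. The core was present for 5 of the 32 higher genes (15.6%) and 0 of the 22 lower genes, against 3.97% of all 32851 windows and 2.41% of the 6965 genes tested that had a window. The 5 were Slc7a11, Nupr1, Trib3, Pck2 and Arl14ep, and the Trib3 match began 15 bases after its start. The call of Arl14ep was lost without R191H replicate 2 or replicate 3. The 250 bases before each start are given in the direction of transcription, with matches in capitals. Slc7a11 (chr3:50443614-50443863, minus strand) held 2 matches, the sense one beginning 66 bases before the start and an antisense one beginning 47 bases before it. Nupr1 (chr7:126625471-126625720, minus strand) held 1 antisense match, 110 bases before its start, and Pck2 (chr14:55540016-55540265, plus strand) held 1 antisense match, 103 bases before it.
Slc7a11: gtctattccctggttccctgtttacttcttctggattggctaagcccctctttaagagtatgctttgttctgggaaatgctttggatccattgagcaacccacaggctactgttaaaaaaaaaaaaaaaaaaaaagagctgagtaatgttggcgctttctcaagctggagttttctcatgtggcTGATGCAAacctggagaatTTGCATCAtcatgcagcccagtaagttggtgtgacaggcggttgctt
Nupr1: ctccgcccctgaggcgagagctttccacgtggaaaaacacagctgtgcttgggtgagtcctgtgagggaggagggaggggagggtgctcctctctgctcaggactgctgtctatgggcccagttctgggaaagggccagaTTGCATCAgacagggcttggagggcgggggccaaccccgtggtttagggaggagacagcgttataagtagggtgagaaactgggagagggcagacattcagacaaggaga
Pck2: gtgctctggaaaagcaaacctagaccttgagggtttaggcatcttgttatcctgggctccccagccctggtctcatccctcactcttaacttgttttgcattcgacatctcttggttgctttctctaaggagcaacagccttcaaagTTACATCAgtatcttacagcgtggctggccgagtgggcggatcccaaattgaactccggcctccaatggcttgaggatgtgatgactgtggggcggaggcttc
The 2 capital runs in Slc7a11 face each other across a short spacer, and the Nupr1 run has the same letters as the antisense run of Slc7a11. No match was found in the windows of Atf5, Ddit3, Cebpg, Slc3a2, Phgdh or Atf4. A match is a run of letters, and binding was not measured.

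Genes for making amino acids were higher for 3 of 26 tested, with 0 lower and a list median of 0.14. Phgdh, the first enzyme of serine synthesis, was at 80.1, 81.0 and 87.4 CPM in R191H and 51.9, 52.3 and 53.02 CPM in WT, a log2 fold-change of 0.66 ± 0.07 (edgeR adjusted p = 7.31e-06). Shmt2, which moves a carbon from serine to folate in mitochondria, was at 40.1, 32.4 and 40.2 CPM in R191H and 28.4, 26.7 and 27.5 CPM in WT. Pck2, the mitochondrial phosphoenolpyruvate carboxykinase whose promoter is shown above, was at 71.7, 56.9 and 72.0 CPM in R191H and 51.2, 48.2 and 42.2 CPM in WT. R191H replicate 2 was the lowest of its group for both. Log2 fold-changes were 0.45 for Shmt2 (edgeR adjusted p = 0.0338) and 0.50 for Pck2 (edgeR adjusted p = 0.00706), and the Shmt2 call was kept in 1 of 6 fits that left out a library, the one without R191H replicate 2. The Pck2 call was lost without R191H replicate 3 (adjusted p = 0.112).

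Asns, asparagine synthetase and a classical ATF4 target, did not pass. It read 10.9, 10.4 and 11.0 CPM in R191H and 6.61, 9.52 and 8.95 CPM in WT, a log2 fold-change of 0.36 with a 95% interval of 0.02 to 0.69 (edgeR adjusted p = 0.563). The groups did not overlap, but the gap from the highest WT library was less than the spread within WT. Psat1, the next enzyme after Phgdh, had only 8, 18 and 36 unique reads in R191H and 14, 8 and 12 in WT. Its groups overlapped, and R191H replicate 3 held most of the difference.

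Among the 20 cytosolic aminoacyl-tRNA synthetases, which charge tRNAs, 14 had a positive log2 fold-change, 2 were called higher, 0 were called lower, and the median was 0.10. Eprs (glutamyl-prolyl-tRNA synthetase) was at 150.2, 150 and 167.6 CPM in R191H and at 111.3, 110.2 and 111 CPM in WT. Lars (leucyl-tRNA synthetase) was at 107.6, 102.4 and 103.4 CPM in R191H and 81.3, 78.1 and 85.3 CPM in WT. Their log2 fold-changes were 0.49 ± 0.07 (edgeR adjusted p = 0.000119) and 0.36 ± 0.07 (edgeR adjusted p = 0.00724), and the Lars call was lost without R191H replicate 3 or WT replicate 2. The 12 mitochondrial synthetases tested had 0 calls and a median of -0.08. Xpot, which exports tRNAs from the nucleus and was on no list, was higher by 0.47 on the log2 scale (edgeR adjusted p = 0.000528).

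Of 16 mTORC1 brakes 9 were in the table and 8 were tested, and 0 were called. Eif4ebp1, the member in the table that was not tested, had 0 unique reads and is described further below. Ddit4 (REDD1) read 28.01 to 37.8 CPM in R191H and 32.9 to 41.1 CPM in WT. Of the 69 genes the study curated as ISR targets, 39 were in the table and 37 tested, of which 12 were higher and 0 lower, with a median of 0.14. That list was curated by hand by the study, and whether these libraries guided it is not given in the sources used here, so its count is not independent evidence of its direction. The other arms of the unfolded protein response gave 0 calls in 33 genes tested for IRE1 and ATF6, with a median of 0.01. Hspa5 (BiP), the ATF6-driven chaperone, was at 14.6, 10.5 and 9.39 CPM in R191H and 11.7, 8.95 and 13.4 CPM in WT, with a 95% interval of -0.35 to 0.37. Dnajb9 and Xbp1, also among these 33 genes, had log2 fold-changes of 0.04 and 0.03 with overlapping groups. NRF2 targets had 1 call in 19 tested, and that gene was Slc7a11. The p53 targets had 0 calls in 10.

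**Figure D2:**
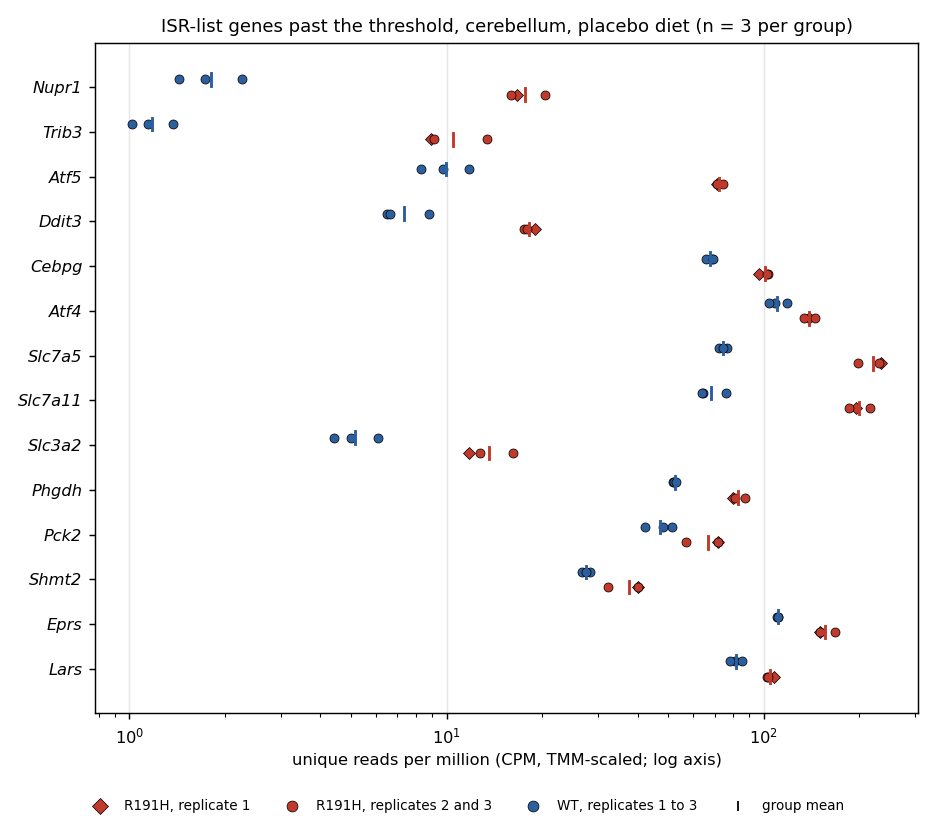
CPM in each library (horizontal log axis) for the 14 ISR-list genes past the threshold, with R191H in red, WT in blue, R191H replicate 1 as diamonds and group means as bars (n = 3 per group). No gene has an R191H library within the WT range, and the widest gaps are those of Nupr1, Trib3 and Atf5.

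**Figure D3:**
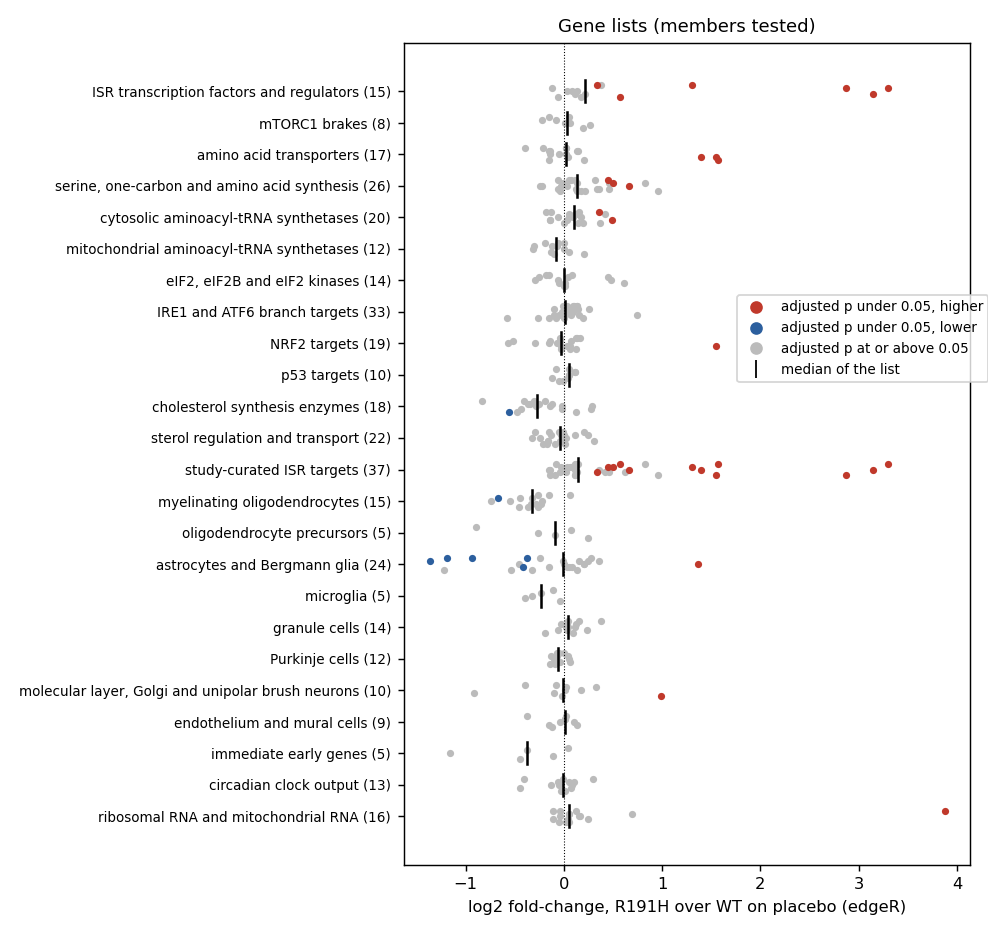
Log2 fold-change of each tested member of the gene lists with 5 or more members tested (dots), with called members in red or blue and list medians as black bars. The ISR lists hold their calls on the right, while the medians of the oligodendrocyte list (-0.33) and of the cholesterol enzymes (-0.27) lie left of 0.

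Astrocyte and Bergmann glia genes went in both directions. Of 24 tested, 5 were lower and 1 was higher (background 0.298% lower and 0.476% higher), on a list chosen with earlier results known. The list median was 0.00, and summed levels were 4617 to 4718 CPM in R191H and 4644 to 4930 CPM in WT. A2m, the protease inhibitor alpha-2-macroglobulin, read 69.7, 65.1 and 61.4 CPM in R191H and 162.4, 157.7 and 127.7 CPM in WT. It had the smallest p of the lower genes, with a log2 fold-change of -1.19 ± 0.08 (edgeR adjusted p = 1.99e-09). Fabp7, the brain lipid-binding protein of radial and Bergmann glia, was at 8.11, 8.28 and 6.71 CPM in R191H and 18.6, 20.1 and 20.9 CPM in WT. At -1.37 ± 0.14 it was the largest fall of a called gene (edgeR adjusted p = 1.04e-06). Etnppl, an astrocyte phospholyase, was at 16.7, 17.3 and 23.7 CPM in R191H and 39.4, 28.9 and 42.6 CPM in WT, a log2 fold-change of -0.94 ± 0.14 (edgeR adjusted p = 0.000459).

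The water channel gene Aqp4 and the gap junction gene Gja1 fell by less. Aqp4 was at 454, 502 and 406 CPM in R191H and 586, 665 and 566 CPM in WT, and Gja1 was at 124.7, 114.7 and 105.4 CPM against 143.6, 153 and 149.4 CPM. Log2 fold-changes were -0.41 (edgeR adjusted p = 0.00433) and -0.37 (edgeR adjusted p = 0.00606), and both calls were lost without R191H replicate 3 or WT replicate 2. Tnc, the extracellular matrix protein tenascin C, was the member that rose, from 3.72, 1.95 and 4.22 CPM in WT to 6.62, 9.13 and 9.39 CPM in R191H (log2 fold-change 1.36 ± 0.24, edgeR adjusted p = 0.00363). Without R191H replicate 3 its adjusted p was 0.06.

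Gfap, the astrocyte intermediate filament often used to mark reactive gliosis, was not higher. It read 73.7, 63.8 and 60.4 CPM in R191H and 78.6, 87.4 and 81.6 CPM in WT, with a log2 fold-change of -0.33 ± 0.08 that missed the threshold (edgeR adjusted p = 0.0615). Its groups did not overlap, and 5 of the alternative fits called it lower. Levels of the glutamate transporter gene Slc1a3 (log2 fold-change 0.21) and of Glul (0.00), glutamine synthetase, did not differ past the threshold. Paqr6 was at 1.32, 0.609 and 1.74 CPM in R191H and 3.44, 2.64 and 2.43 CPM in WT (log2 fold-change -1.22, edgeR adjusted p = 0.186).

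Several further called genes that astrocytes are known to express, though not always alone, were on no list, and they were picked out after their values were seen. Lower ones were Ntsr2 (a neurotensin receptor, log2 fold-change -0.91), Agt (angiotensinogen, -0.74), Slc25a18 (a mitochondrial glutamate carrier, -0.52) and Sparc (a matricellular protein, -0.36). Agt was at 42.9, 31.7 and 48.9 CPM in R191H and 66.0, 66.0 and 74.2 CPM in WT. Higher ones were Tril (a Toll-like receptor 4 accessory protein, 0.77), Luzp2 (0.53), Chst2 (a sulfotransferase, 0.60) and Hepacam (the glial adhesion protein GlialCAM, 0.37). Tril was at 232, 211 and 256 CPM in R191H and 133.6, 133.9 and 141.6 CPM in WT, so that its groups were well separated. The Sparc call was lost without R191H replicate 1, and that of Hepacam without R191H replicate 3 or WT replicate 2.

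Myelinating oligodendrocyte genes lay below 0 for 14 of 15 tested, with a median of -0.33, but only 1 was called. That gene was Mal, a myelin proteolipid, at 128.7, 99.9 and 92.5 CPM in R191H and 129.9, 142.4 and 236.1 CPM in WT. R191H replicate 1 and WT replicate 1 were nearly level, and WT replicate 3 stood above the others (log2 fold-change -0.67 ± 0.15, edgeR adjusted p = 0.0261). Mbp had overlapping groups, at 107.4 to 138.9 CPM in R191H and 126.3 to 160.1 CPM in WT (edgeR adjusted p = 0.434). The summed level of the list was 1228, 1007 and 1032 CPM in R191H and 1166, 1227 and 1757 CPM in WT. Without WT replicate 3 the median was -0.13 and Mal was no longer called (adjusted p = 0.0896). The Mal call was also lost without R191H replicate 2 (0.135) or replicate 3 (0.324), with DESeq2 (0.668) and in a fit with the 2BAct libraries (0.123), so that it was kept in 3 of 6 fits that left out a library. Oligodendrocyte precursor genes gave 0 calls in 5.

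Cholesterol synthesis, which myelinating glia depend on, also lay mostly below 0. Of 18 enzymes tested 15 had a negative log2 fold-change, 1 was called lower, 0 higher, and the median was -0.27. Hmgcs1, the enzyme that makes HMG-CoA, was at 136.4, 125.7 and 118.1 CPM in R191H and 155.8, 178.4 and 226 CPM in WT, a log2 fold-change of -0.56 ± 0.09 (edgeR adjusted p = 0.00187). Cyp51 (-0.36, adjusted p = 0.0561 in the edgeR fit), Fdft1 (-0.41, 0.0879) and Insig1 (-0.29, 0.0774), a sterol sensor from the list of sterol regulators, were just short of the threshold. WT replicate 3 was the highest library for Hmgcs1, Cyp51, Fdft1 and Insig1, as it was for Mal. The Hmgcs1 call was lost without R191H replicate 3 (adjusted p = 0.0565), with DESeq2 (0.0923) and in a fit with the 2BAct libraries (0.0791), and Hmgcs1 was still called without WT replicate 3 (log2 fold-change -0.40). Scd1, a fatty acid desaturase on no list, was lower by a log2 fold-change of -0.32 (edgeR adjusted p = 0.0325), a call lost when R191H replicate 2 or 3, or WT replicate 2 or 3, was left out.

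**Figure D4:**
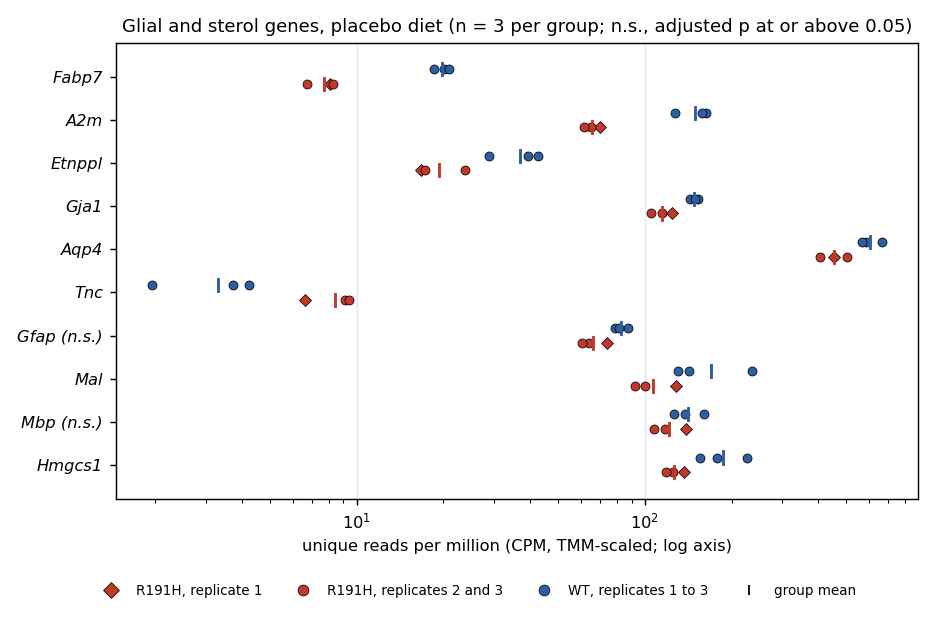
CPM in each library (horizontal log axis) for 10 astrocyte, oligodendrocyte and sterol genes, with R191H in red, WT in blue, R191H replicate 1 as diamonds and group means as bars (n = 3 per group; n.s. marks an adjusted p at or above 0.05). Fabp7, A2m and Etnppl are clearly separated, while for Mal and Hmgcs1 1 WT library lies to the right of the other 2.

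Among genes of cerebellar neurons, 14 of 14 granule cell genes and 12 of 13 Purkinje cell genes had enough reads to be tested. No other tissue was compared, so this does not check the tissue label. Both lists had 0 calls, with medians of 0.04 and -0.06. Among interneuron genes Npy, a neuropeptide, was higher in R191H, at 15.6, 17.3 and 18.8 CPM against 8.54, 6.77 and 10.9 CPM (log2 fold-change 0.99 ± 0.16, edgeR adjusted p = 0.000826). Microglia genes had 0 calls in 5 tested, at a summed level of 63.9 to 69.9 CPM in R191H and 63.5 to 86.5 CPM in WT, and Aif1, Cx3cr1 and P2ry12 were among the 10 not listed.

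Of 2 hemoglobin genes tested, which come from red blood cells left in the vessels, both lay lower in R191H and 1 was called. The called gene, Hbb-bs, was at 3.48, 6.45 and 5.10 CPM in R191H and 10.6, 11.8 and 14.3 CPM in WT (log2 fold-change -1.27 ± 0.20, edgeR adjusted p = 0.000586). Hba-a2, the only other listed member, was under 2 CPM throughout and was not called (adjusted p = 0.468). Its log2 fold-change was -1.03, and its groups did not overlap. Of 13 choroid plexus genes only 2 were in the table, and both were tested. Ttr, an abundant choroid plexus transcript, was at 793, 10.4 and 228 CPM in R191H and 184, 639 and 209 CPM in WT. Its groups overlapped (log2 fold-change -0.01), and why it varied between libraries was not tested. Genes of endothelium and mural cells (9 tested), fibroblasts (3), immediate early response (5) and the circadian clock (13) gave 0 calls each. Fos was at 27.2, 6.33 and 5.23 CPM in R191H and 24.5, 13.8 and 45.4 CPM in WT.

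Among called genes outside the lists, Ccnd2 stood out. It encodes cyclin D2, which drives granule neuron precursors into division, and it was at 62.8, 51.9 and 48.3 CPM in R191H and 9.50, 15.4 and 15.7 CPM in WT. Its log2 fold-change was 2.00 ± 0.14 (edgeR adjusted p = 1.99e-09), larger than those of the amino acid transporters. G0s2, an inhibitor of triglyceride lipase, was at 13.4, 9.25 and 9.52 CPM in R191H and 3.99, 4.36 and 5.50 CPM in WT, a log2 fold-change of 1.20 ± 0.20 (edgeR adjusted p = 0.00106). Both were clear of the WT range in each R191H library. Hist1h1c, a linker histone, was higher by 0.66, and Chpt1, the last enzyme of phosphatidylcholine synthesis, by 0.45, while Chka, a choline kinase at its start, was lower at -0.32. The Chka call was lost when R191H replicate 3 or either of WT replicates 1 and 2 was left out.

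Lower genes without a list included several of low level. Rsrp1 was at 7.78, 6.51 and 5.23 CPM in R191H and 10.9, 12.7 and 13.9 CPM in WT, with a log2 fold-change of -0.95 that reversed to 0.12 on centred TPM. Hsph1, a heat shock chaperone, was at 7.62, 6.58 and 5.30 CPM against 11.3, 9.52 and 13.7 CPM (-0.83). Itih3 (-0.86) and Pygm (-0.67), the glycogen phosphorylase that astrocytes share with muscle, lay between 4.47 and 15.3 CPM in the 6 libraries. Rflnb (-0.58), Marcksl1 (-0.62) and Tst (-0.52) completed the larger falls. Of these, Rflnb kept its call in each fit that left out 1 library. The calls of Rsrp1, Hsph1, Itih3, Pygm, Marcksl1 and Tst were lost in at least 1.

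Small structural RNAs made up a visible share of the rises, a grouping made after the calls were seen. Of 92 small nuclear, small nucleolar and other small RNAs tested, 8 were higher and 0 lower, and 81 had a positive log2 fold-change, with a median of 0.37 beside 0.00 for the 8821 protein-coding genes. Gm22513, an snRNA gene, was at 785, 547 and 614 CPM in R191H and 478, 367 and 326 CPM in WT (log2 fold-change 0.73 ± 0.11, edgeR adjusted p = 0.000586). Rn7s1, which encodes the RNA of the signal recognition particle, was at 4215, 3306 and 3858 CPM in R191H and 2600, 2891 and 3275 CPM in WT (0.38, edgeR adjusted p = 0.0325). For Rn7s1 the gap between R191H replicate 2 and WT replicate 3 was narrow, and its call was kept in 2 of 6 fits that left out a library, those without either of these. Over the 92 genes those fits called 4 to 9 higher and 0 lower, with 4 called without R191H replicate 1 and 5 without R191H replicate 3. Summed over the 92 genes, R191H libraries held 63030, 56050 and 66030 CPM and WT libraries 53030, 55680 and 59920 CPM, so that the sums overlapped. Members of such families share near-identical copies, and which copy a read came from is uncertain.

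Rn18s-rs5 itself passed the test with a log2 fold-change of 3.87 ± 0.75 (edgeR adjusted p = 0.00835). R191H replicate 1 was at 87870 CPM, replicates 2 and 3 at 2551 and 4030 CPM, and WT at 2348, 1791 and 2299 CPM. Without R191H replicate 1 the log2 fold-change was 0.62 (adjusted p = 0.0122). The call was lost with limma voom and quality weights (log2 fold-change 2.30, adjusted p = 0.128). It was also lost with limma on ln TPM (adjusted p = 0.426, and 0.659 after centring). Leaving out Rn18s-rs5 and the mitochondrial genes before scaling gave 79 calls, 77 of them among the 78. Leaving out R191H replicate 1 altogether gave 80 calls, of which 61 were shared. Among the 92 small RNAs, 4 of the 8 calls were lost without that library (Gm23238, Snord15b, Gm22988 and Rn7s1), while 79 had a positive log2 fold-change and the median was 0.32.

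Male mice of both genotypes, 3 per group at 2, 5 and 7 months and without a diet arm, gave a separate set of cerebella. They were fitted age by age, and no library is shared with the placebo comparison. Of the 78 placebo calls 74 were tested in males. At 2 months 69 of them had the same direction (93.2%, against 56.6% of all genes tested in both), and 29 were also called that way. At 5 months 67 had the same direction (90.5% against 53.5%) and 37 were called the same way. At 7 months 72 had the same direction (97.3% against 56.7%) and 28 were called the same way.

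Background call rates in males were 0.484% of genes at 2 months, 1.27% at 5 months and 0.505% at 7 months. As a share of the male calls that were tested on placebo, the shared genes made up 82.9% of 35 at 2 months, 37.4% of 99 at 5 months and 80% of 35 at 7 months. In all, 22 placebo calls were called the same way at each male age, 18 higher and 4 lower. The 4 lower genes were A2m, Fabp7, Ntsr2 and Etnppl, and the higher ones included Atf5, Slc7a5, Slc7a11, Nupr1, Trib3, Ddit3, Cebpg, Slc3a2, Phgdh, Eprs, Lars, Ccnd2 and Tnc. For Atf5 the log2 fold-change was 2.87 on placebo and 2.70, 2.57 and 2.83 in males at 2, 5 and 7 months. The log2 fold-change of Trib3 was 3.15 on placebo and 2.97, 3.95 and 4.60 in males, and that of Tnc was 1.36 and then 1.46, 2.17 and 2.23. Differences between the male ages, and between the placebo and male comparisons, were not tested.

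Another 32 placebo calls, 17 higher and 15 lower, were tested at each male age and called the same way at none. Rn18s-rs5 is counted there, although it was called the other way in males at 2 months (-0.90, edgeR adjusted p = 0.00187). Among the 32 were all 8 of the small RNAs, as well as Mal, Hmgcs1 and Scd1. Hmgcs1 had male log2 fold-changes of -0.37, -0.29 and -0.51, and Mal of -0.57, -0.38 and -0.51, in the direction of the placebo comparison but short of the threshold. Gm24514, the small RNA with the largest rise on placebo (0.93), had 0.17, 0.18 and 0.45 in males. Hbb-bs was called lower in males at 5 months (-0.80, edgeR adjusted p = 0.00782) and not at 2 months (-0.38) or 7 months (-0.23).

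**Figure D5:**
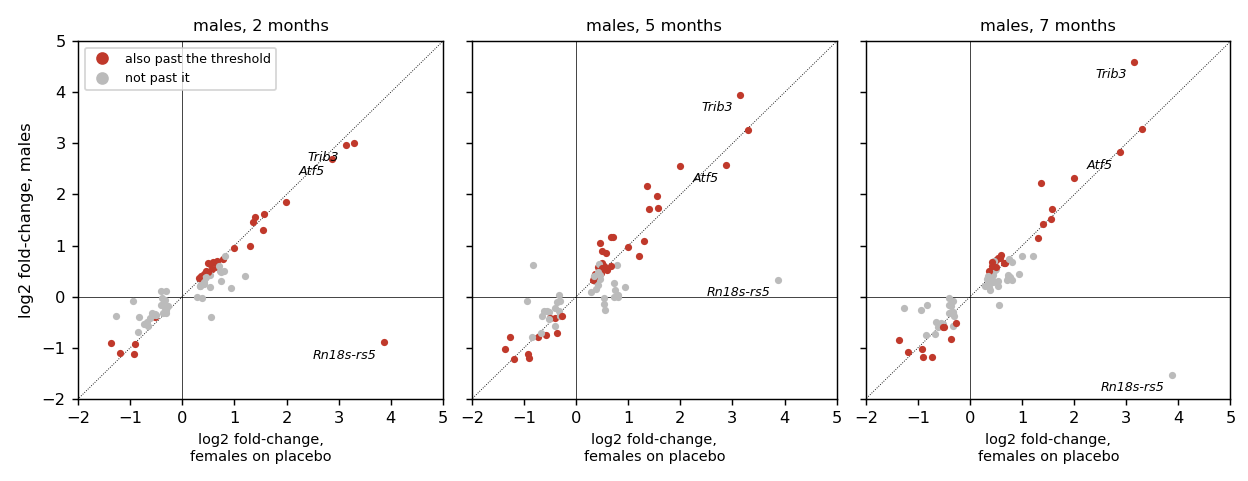
Log2 fold-change of R191H over WT in males at 2, 5 and 7 months (vertical axes) against that in females on placebo (horizontal axis) for the 74 placebo calls tested in males, with genes also called in males in red. Most points lie near the dotted line of equal change, and Rn18s-rs5 lies far below it.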

How the data were processed

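Total RNA from cerebellum was depleted of ribosomal RNA and sequenced by the authors, who aligned reads with STAR 2.5.3a to mm10 and estimated expression with MMSEQ. The deposited tables hold unique read counts per gene, mostly even (87% to 88.2% of values), as would be seen if both reads of a pair were counted, for which the count models make no correction, and, by the authors, the natural log of TPM per library. A value of exactly -1.2 stood in all 3 libraries for 3412 genes in R191H + placebo and 619 in WT + placebo, while other genes lay below it. Genes at that value throughout a group were left out of fits on ln TPM. The authors' own comparison columns (Bayes factors, posterior probabilities, effects and group means) were not used. No counts of columns outside the series arose (0).

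Counts of the 6 placebo libraries were filtered (filterByExpr, minimum count 10, minimum total 15), scaled by TMM and tested with edgeR 4.0.16 (glmQLFTest; limma 3.58.1, R 4.3.3), with Benjamini-Hochberg adjustment over all genes tested and a threshold of 0.05. Standard errors are the log2 fold-change over the square root of F. Males were fitted per age in the same way. Named genes were the 15 largest rises and falls among non-overlapping calls, every called list member and a set of fixed genes, some of which are not reported here. The other genes named were picked after their values were seen. Members and lists were chosen with earlier results of these data known. Mice were separate animals. Depth was 12873718 to 17044673 unique reads, and intervals are 95% confidence intervals of the log2 fold-change from the edgeR fit. The pipeline was tested on simulated data. Gene positions are from GENCODE vM21 (GRCm38, the same assembly as mm10; found for 75 of the 78 called genes) and promoters from RefSeq. Alternatives were other scalings and filters, DESeq2 1.42.0, limma on voom weights or on ln TPM, all 12 diet libraries, a replicate block and leaving out each library.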

Additional observations from a re-analysis of the deposited data

Results flagged for a closer look

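Genes called on placebo whose R191H and WT libraries also failed to overlap in males, but the other way round, were 4, and the difference between the sexes was not tested. Rn18s-rs5 was higher on placebo (log2 fold-change 3.87) and lower in males at 2 months (-0.90, edgeR adjusted p = 0.00187). In males at 5 months its groups did not overlap in the placebo direction (0.32, edgeR adjusted p = 0.104), and at 7 months they overlapped (-1.53, edgeR adjusted p = 0.569). Pde10a was higher on placebo (0.55) and at -0.26 in males at 5 months (adjusted p = 0.616). Hsph1 was lower on placebo (-0.83) and at 0.62 in males at 5 months (adjusted p = 0.208). Gm22988, a small nucleolar RNA, was higher on placebo (0.54) and at -0.15 in males at 5 months (adjusted p = 0.673).

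Eif4ebp1, which encodes the translation repressor 4E-BP1 and is an ATF4 target, could not be tested, since it had 0 unique reads in all 6 libraries. Its deposited ln TPM nevertheless differed, at -2.09, -1.46 and -1.61 in R191H replicates 1 to 3 and -3.88, -4.23 and -5.30 in WT replicates 1 to 3. The R191H mean was higher by 2.75 natural log units, and no unique read bears on that estimate.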

How the results depend on the processing

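The count of 78 calls (48 higher, 30 lower) stayed between 77 and 96 under RLE size factors, library totals, both filters, DESeq2, limma voom and the removal of Rn18s-rs5 and mitochondrial genes. Library totals shifted the median of all genes to -0.04 and gave 50 lower genes, with 46.2% of calls higher in place of 61.5%. The fit with all 12 diet libraries gave fewer calls, 57, all of them among the 78, so that 21 were lost. Of the 57, 19 were lower genes. On deposited ln TPM, where the median of all genes was -0.48, limma called 3 genes, 2 higher and 1 lower, and 2 were called the same way in males at each age. After centring each library on its median, an alternative chosen after seeing the data, it called 27 (22 higher, 5 lower), of which 12, 10 and 11 were called the same way in males at 2, 5 and 7 months.

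With a replicate block there were 138 calls (74 higher, 64 lower), including the 78. Same-numbered libraries did not deviate together (correlations 0.05, 0.02 and -0.04), and the labels do not pair the mice, so the numbers were taken as names only. Leaving out each library in turn gave 36 to 80 calls, 26 to 56 higher and 10 to 36 lower, and 32 genes stayed called in all 6 such fits. R191H replicate 3 gave the lowest (36, with 26 higher and 10 lower), and without WT replicate 3 there were 19 lower genes. Shared calls in males ran from 20 to 35, 25 to 48 and 19 to 36 at 2, 5 and 7 months. These ranges cover fits without a placebo library and fits without a male library of that age. No called gene changed sign when a placebo library was left out. The causes of these shifts were not tested.

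Signs reversed mainly for genes near 0. On ln TPM the log2 fold-changes were -0.15 for Atf4, -0.13 for Lars, -0.43 for Eif2b2, -0.46 for Eif2b5, -0.12 for Asns, -0.49 for Hspa5, -0.45 for Dnajb9, -0.41 for Xbp1 and -0.41 for Xist, and after centring 0.12 for Rsrp1 and -0.022 for Hspa5. With library totals they were -0.022 for Eif2b5, -0.035 for Hspa5 and -0.0052 for Xbp1. Over the 6 fits that left out 1 library they ranged from -0.34 to 0.23 for Eif2b4, -0.035 to 0.073 for Eif2b5, -0.15 to 0.37 for Ppp1r15a, -0.19 to 0.15 for Hspa5, -0.0505 to 0.101 for Dnajb9, -0.045 to 0.12 for Xbp1 and -0.0075 to 0.076 for Xist. Few unique reads limit what can be said of Ppp1r15a, Psat1, Eif2b2 and Eif2b4.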
